A study of Homo sapiens with 24 samples.

Results

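The comparison described here sets SG12 against SG21, the lines given as TMEM97 knockouts, both grown in LPDS medium, in 6 of the 24 RNA libraries of the study. The members are the libraries whose labels name either line and LPDS, 3 per line, and no measured value was used to pick them. The host of both lines is HGC27, an established line from a human gastric carcinoma. Besides SG12 and SG21 the study holds the control-guide line SGCTRL and parental cells, both labelled wild type, and each of the 4 was kept for 3 days in LPDS or in FBS. LPDS usually stands for lipoprotein-deficient serum and FBS for fetal bovine serum, and the labels do not spell them out. Total RNA was depleted of ribosomal RNA and made into stranded libraries. The guides, their target sites, and whether a line is a clone or a pool are not given in the sources used here. A difference between the lines therefore cannot be told apart from anything else that differs between these cultures, and it is not a measure of the knockout, which both carry by their labels.

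TMEM97, also called the sigma-2 receptor, is a membrane protein of the endoplasmic reticulum and lysosome that binds NPC1, the protein that moves cholesterol out of lysosomes. Cells deprived of lipoproteins lose their outside source of cholesterol, and the transcription factor encoded by SREBF2 then raises the genes of cholesterol synthesis and uptake, TMEM97 among them. Cells short of amino acids, or under other strains on translation, switch on the integrated stress response, in which the factor ATF4 raises amino acid carriers, enzymes of serine and folate metabolism and tRNA synthetases.

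Most reads lie on the strand opposite to the entry they are counted under, so a gene is read here under the entry that overlaps its exons on the other strand, named in parentheses at first mention. Such an overlap takes in a stretch of the gene only, and levels of different genes are not set against each other. The entries give 2796 protein-coding genes a level above 5.74 CPM (reads per 1000000 reads on genes), the 90th percentile of entries with no gene across from them, and these are called readable. The SG12 libraries held 3.25, 3.05 and 3.13 M reads on genes, against 2.72, 3.55 and 2.55 M in SG21. Log2 CPM correlated at 0.962 to 0.963 within SG12 and 0.947 to 0.960 within SG21, and at 0.926 to 0.938 between the lines, so each library stood nearest to its own line. Ambiguous reads made up 3.13%, 2.99% and 3.15% of the reads on genes in SG12, against 2.71%, 2.15% and 2.18% in SG21. SG21 replicates 2 and 3 thus sit with the 6 SGCTRL libraries, under 2.4%, while SG21 replicate 1 sits with the other 15 libraries. Reads aligned more than once were 13.4%, 11.4% and 13% of the aligned reads in SG12, against 10.9%, 18.1% and 17.2% in SG21, highest in the same replicates 2 and 3. This split was also added to the fit as a term. Every group except SG21 in LPDS lies wholly on one side of it, so SG21 replicate 1 is then the only link between the lines. That fit thus nearly repeats the comparison with SG21 replicate 1 alone. It cannot tell the split from any other difference between SG21 replicate 1 and replicates 2 and 3. Of the marker lists, 2 of 34 epithelial genes (DSG2 and CDH3), 1 of 27 gastric ones (GATA6), 1 of 19 fibroblast ones (FAP) and none of 21 leukocyte ones were readable, too few to check the labelled cell type.

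SG12 and SG21 differed widely in LPDS, with fewer genes higher than lower in SG12. Of the readable genes, 959 passed the test, 34.3% of those tested (edgeR quasi-likelihood F test, Benjamini-Hochberg adjusted p under 0.05 over 12822 entries). They were 370 genes higher in SG12 (13.2%) and 589 lower (21.1%). Their median size was 0.67 on the log2 scale, and 209 exceeded 2-fold, 94 higher and 115 lower. Over all entries, 2343 passed (18.3%), 1122 higher (8.75%) and 1221 lower (9.52%). With the library split as a term, 944 of the 959 genes kept their direction and 442 still passed, and the counts over all readable genes fell to 187 higher and 328 lower. With the share of reads on the genes' own strand as a covariate the counts were 368 higher and 327 lower, so the excess of lower genes depends on that choice. Levels are shares of a library's reads, and fewer cells of a kind and less RNA per cell cannot be told apart in them.

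TMEM97 RNA was higher in SG12 than in SG21 in LPDS, whereas in FBS it was lower. Read under IFT20, whose exons share 361 bases with it, TMEM97 (chromosome 17, 28319095 to 28328685 in hg38) had 213, 192 and 180 CPM in SG12, against 121, 122 and 128 CPM in SG21. The lines did not overlap, and the log2 fold change was 0.66 ± 0.12 (SE; edgeR adjusted p = 9.86e-05). In FBS TMEM97 averaged 52.8 ± 4.1 CPM in SG12 and 76.0 ± 2.96 CPM in SG21 (SD, n = 3 each), a log2 fold change of -0.52 ± 0.13 (edgeR adjusted p = 0.00232). The difference between media was 1.18 ± 0.18 on the log2 scale (edgeR adjusted p = 1.3e-05). A level read over these bases does not show whether the protein is made, so it does not check the knockout label of either line.

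Most readable cholesterol synthesis genes did not pass between the lines in LPDS, and the pair that did went opposite ways. Of 23 genes in the list 6 were readable, of which 1 passed higher and 1 lower, beside 13.2% of all readable genes higher and 21.1% lower. The median log2 fold change was 0.02 against -0.07 over all readable genes. HMGCS1 (ENSG00000261604), the enzyme that makes HMG-CoA, had 2483, 2823 and 2756 CPM in SG12, against 2522, 2944 and 2859 CPM in SG21. These ranges overlap almost fully, and the log2 fold change was -0.05 ± 0.10 (edgeR adjusted p = 0.817). LSS (ENSG00000223901), the cyclase that makes lanosterol, was at 0.08 (adjusted p = 0.625), and FDFT1 (ENSG00000255046), squalene synthase, at 0.16 (adjusted p = 0.671).

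ACAT2 and IDI1 were the pair that passed. ACAT2 (TCP1), the thiolase that joins acetyl-CoA units at the head of the pathway, fell to 392, 374 and 381 CPM in SG12, against 858, 717 and 641 CPM in SG21. The fold change of -0.95 ± 0.10 in log2 (edgeR adjusted p = 7.85e-09) sets SG21 apart from the other lines as well as from SG12, since SGCTRL averaged 393 and parental cells 407 CPM in LPDS. IDI1 (IDI2-AS1), the isomerase of the isoprenoid units, had 642, 604 and 688 CPM in SG12, against 487, 245 and 225 CPM in SG21. Its log2 fold change of 1.02 ± 0.17 (edgeR adjusted p = 2.53e-05) follows the library split, for the low SG21 values are those of replicates 2 and 3. With the split as a term IDI1 was at 0.40 and no longer passed (adjusted p = 0.142).

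In FBS the same synthesis genes were lower in SG12, where 5 of the 6 passed, against 22.5% of all readable genes lower there. HMGCS1 averaged 485 ± 73.2 CPM in SG12 and 1228 ± 86.9 CPM in SG21 in FBS (SD, n = 3 each). The difference between media passed for 5 of the 6, always positive (9.51% of all readable genes), with 1.29 ± 0.15 for HMGCS1 and 0.99 ± 0.14 for LSS in log2 (edgeR adjusted p = 8.25e-08 and 4.51e-06). FDFT1 was the exception at 0.45 (adjusted p = 0.344).

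**Figure D1:**
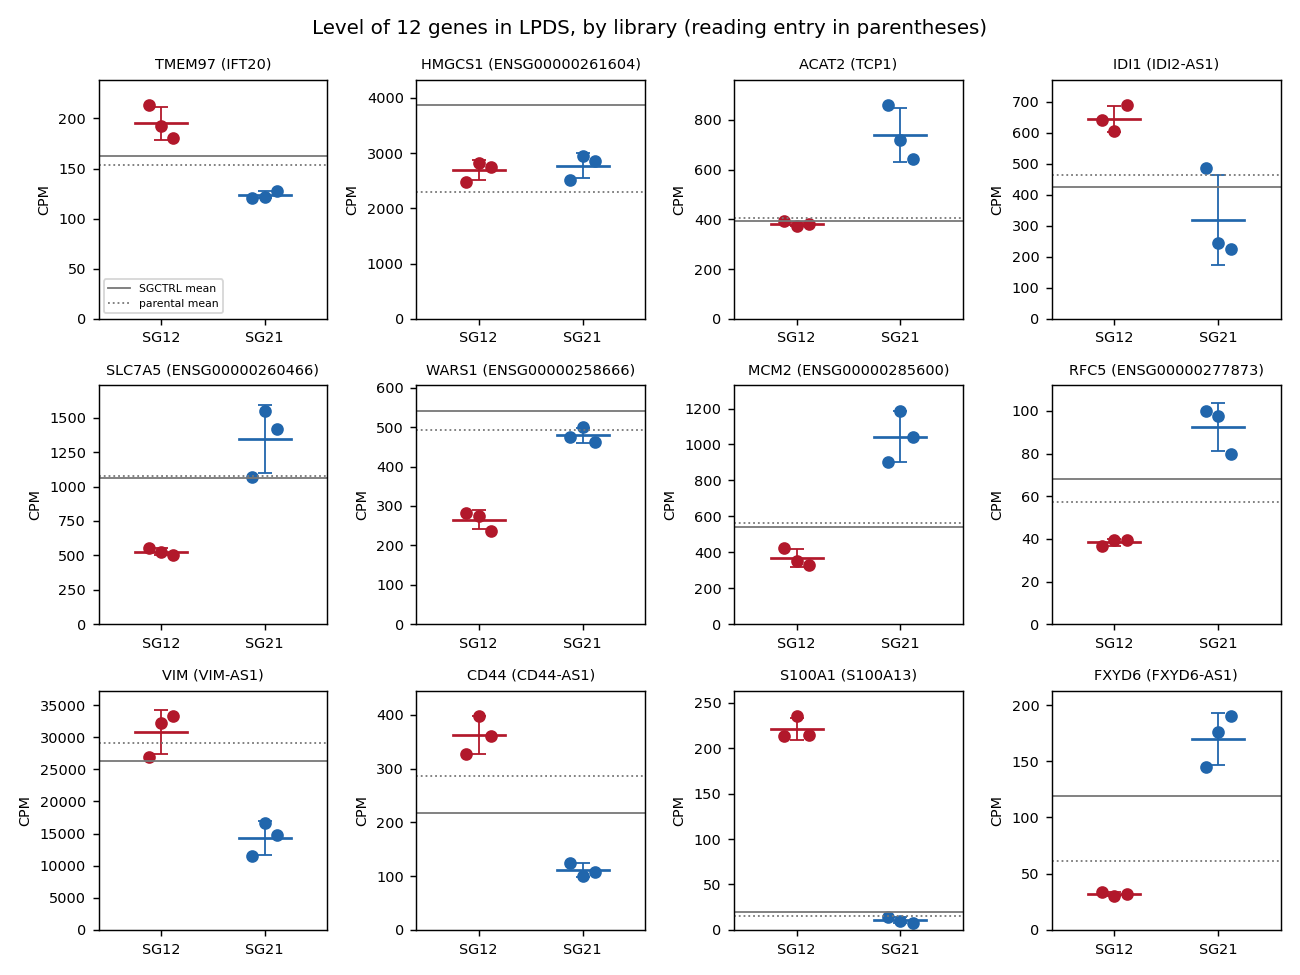
Level of 12 genes in LPDS in CPM (y axis, from 0), with SG12 at the left and SG21 at the right of each panel; points are libraries in the order of their replicate numbers, bars the mean and SD of 3 libraries, and the full and dotted grey lines the SGCTRL and parental means. HMGCS1 overlaps between the lines, IDI1 splits SG21 replicate 1 from replicates 2 and 3, and S100A1 stands at 213 to 235 CPM in SG12, against 8.07 to 14.1 CPM in SG21.

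Genes of sterol uptake and its control were split. Among 7 readable genes of that list, which includes TMEM97, 3 rose and 2 fell, beside 13.2% of all readable genes higher and 21.1% lower. NPC1 (RMC1) had 96.3, 95 and 73.2 CPM in SG12, against 63.8, 49.7 and 46.6 CPM in SG21. The NPC1 groups did not overlap, with a log2 fold change of 0.73 ± 0.17 (edgeR adjusted p = 0.00169), but against SG21 replicate 1 alone it was 0.48 (adjusted p = 0.256). SREBF1 (RAI1), the factor that drives fatty acid synthesis, rose by 0.88 ± 0.19 (adjusted p = 0.000775). LRP8 (MAGOH-DT), a lipoprotein receptor, fell by 0.69 ± 0.12 (adjusted p = 4.46e-05), with 81.5, 94.0 and 86.9 CPM in SG12 and 134, 152 and 137 CPM in SG21. SREBF2 (SREBF2-AS1) was at -0.32 ± 0.11 (adjusted p = 0.0362), lost in 10 of 16 other settings and at -0.03 with the split term.

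Of 13 readable fatty acid and glycerolipid genes 5 fell and 1 rose, beside 21.1% of all readable genes lower and 13.2% higher, with a median log2 fold change of -0.35. None of the 13 passed lower with the split term. PCYT2 (NPB), an enzyme of phosphatidylethanolamine synthesis, had 163, 166 and 182 CPM in SG12, against 195, 320 and 269 CPM in SG21 (log2 fold change -0.62 ± 0.13, edgeR adjusted p = 0.000673). FADS1 (FADS2), a fatty acid desaturase, stood at 101 CPM in each SG12 library, against 140, 172 and 152 CPM in SG21 (-0.62 ± 0.14, adjusted p = 0.00193). DGAT2 (ENSG00000254814), which makes triacylglycerol, was at -0.58 (adjusted p = 0.00354), and ACLY (ENSG00000274630), which feeds acetyl-CoA into lipid synthesis, at -0.35 (adjusted p = 0.00648). CHKA (ENSG00000255031), choline kinase, was the last of the 5, and MID1IP1 (MID1IP1-AS1) rose by 0.54 (adjusted p = 0.0163). With the split term the list held 1 gene that passed higher, and PCYT2, FADS1, DGAT2 and ACLY were at -0.20, -0.47, -0.25 and -0.33 (adjusted p = 0.53, 0.141, 0.502 and 0.0922).

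The amino acid carriers SLC7A5, SLC1A5 and SLC7A11 and the folate enzyme MTHFD2, all of the integrated stress response list, were lower in SG12. Among 12 readable genes of the list 6 fell and 1 rose, beside 21.1% of all readable genes lower and 13.2% higher. The median log2 fold change of the list was -0.53. SLC7A5 (ENSG00000260466), a carrier of large neutral amino acids, had 555, 525 and 500 CPM in SG12, against 1069, 1549 and 1415 CPM in SG21. Every SG12 library lay well under every SG21 library, and the log2 fold change was -1.35 ± 0.16 (edgeR adjusted p = 4.18e-08). SLC1A5 (ENSG00000275719), a glutamine carrier, followed with 936, 869 and 789 CPM in SG12, against 1612, 2399 and 2083 CPM in SG21 (-1.23 ± 0.13, adjusted p = 4.45e-09). SLC7A11 (SLC7A11-AS1), the cystine carrier, fell by 0.77 ± 0.11 (adjusted p = 2.26e-06). MTHFD2 (ENSG00000264324), a mitochondrial folate enzyme, had 1508, 1573 and 1379 CPM in SG12, against 2247, 2476 and 2257 CPM in SG21 (-0.65 ± 0.08, adjusted p = 1.55e-07).

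PYCR1 (ENSG00000263585), of proline synthesis, and CEBPB (CEBPB-AS1), a transcription factor, were the other members that fell, by 0.66 and 1.48. The riser was EIF2AK3 (ENSG00000225420), the kinase PERK that senses stress in the endoplasmic reticulum, at 0.56 (edgeR adjusted p = 0.000396). SHMT2 (ENSG00000276727), a serine and glycine enzyme, was at 0.03 and ALDH1L2 (NOPCHAP1), another folate enzyme, at -0.42 (adjusted p = 0.89 and 0.0792). With the split term 4 genes of the list still fell, with a median of -0.29.

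In FBS the list had 5 genes higher in SG12 (20.9% of all readable genes were), and the difference between media passed for 8 of the 12 in the negative direction (12.3% of all). It was -1.87 ± 0.16 for SLC7A11, which averaged 450 ± 14.2 CPM in SG12 and 209 ± 11.3 CPM in SG21 in FBS (SD, n = 3 each), against 210 ± 20.2 CPM in SG12 and 356 ± 14.8 CPM in SG21 in LPDS (edgeR adjusted p = 6.93e-11). For SLC7A5, SLC1A5 and MTHFD2 it was -1.6, -1.5 and -1.32.

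Of 10 readable genes that load tRNAs with amino acids 4 fell in LPDS, with a median of -0.42, beside 21.1% of all readable genes lower. With the split term 4 passed lower. The difference between media passed for 3 of the 10, WARS1, AIMP2 and MARS1, all negative (12.3% of all readable genes), and the median over the list was -0.34. WARS1 (ENSG00000258666), the tryptophan-tRNA synthetase, had 283, 274 and 237 CPM in SG12, against 475, 500 and 461 CPM in SG21 (log2 fold change -0.85 ± 0.10, edgeR adjusted p = 4.59e-08). In FBS WARS1 averaged 1239 ± 84.7 CPM in SG12 and 340 ± 35.8 CPM in SG21 (SD, n = 3 each). The difference between media of -2.72 ± 0.14 (adjusted p = 2.08e-16) came with an SG12 level that ran opposite to that of SGCTRL, which had 541 CPM in LPDS and 419 CPM in FBS. AIMP2 (EIF2AK1), a scaffold of the synthetase complex, fell to 1175, 1102 and 952 CPM in SG12, against 1798, 1992 and 1785 CPM in SG21 (-0.79 ± 0.10, adjusted p = 3.24e-07), with a difference between media of -2.04. MARS1 (DDIT3), the methionine-tRNA synthetase, fell by 0.52.

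DNA replication was the list with the largest share of lower genes among those with at least 4 readable members. Of 15 readable genes 12 fell, with a median log2 fold change of -0.71, beside 21.1% of all readable genes lower. In all 12 the libraries of the lines were fully apart, as they were in 46.5% of all readable genes. MCM2 (ENSG00000285600), part of the helicase ring that opens DNA for copying, had 423, 351 and 329 CPM in SG12, against 901, 1187 and 1040 CPM in SG21. The log2 fold change of -1.50 ± 0.11 (edgeR adjusted p = 3.26e-13) has SG12 below and SG21 above SGCTRL and parental cells, at 544 and 563 CPM. RFC5 (ENSG00000277873), of the clamp loader, had 36.5, 39.6 and 39.4 CPM in SG12, against 100, 97.6 and 79.6 CPM in SG21 (-1.26 ± 0.15, adjusted p = 3.98e-08). RAD54L (LRRC41), a recombination motor, had 172, 141 and 142 CPM in SG12, against 334, 371 and 331 CPM in SG21 (-1.19 ± 0.11, adjusted p = 3.37e-10).

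CDK2 (ENSG00000258554), the kinase of S-phase entry, fell by 0.71 ± 0.11 (edgeR adjusted p = 8.95e-06). CCNE2 (INTS8), its cyclin, fell by 1.01, LIG1 (ENSG00000269534), the ligase of Okazaki fragments, by 0.97, and GINS3 (ENSG00000276131), of the helicase complex, by 0.81. PRIM1, RRM1, POLE3 and GINS4 were also among the 12, between -0.68 and -0.31. CHAF1A, DUT and CCND1 were at 0.10, 0.20 and -0.21 and did not pass (adjusted p = 0.776, 0.764 and 0.14). With the split term 7 genes of the list still fell, with a median of -0.85. In FBS 10 genes of the list fell and 1 rose, beside 22.5% of all readable genes lower and 20.9% higher. MCM2 differed more there, at -2.39 (difference between media 0.89 ± 0.15, adjusted p = 8.13e-05).

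Of 6 readable mitosis genes 3 fell, beside 21.1% of all readable genes. They were PLK1 (ENSG00000261266), a kinase of mitotic entry, by 0.70 ± 0.12 (edgeR adjusted p = 5.98e-05), HMMR (HMMR-AS1) by 0.47 and CCNA2 (EXOSC9), cyclin A2, by 0.41. PLK1 had 308, 284 and 273 CPM in SG12, against 428, 490 and 485 CPM in SG21. KIF20A, KIF4A and ANLN, motors and scaffolds of cell division, were at 0.08, 0.12 and 0.15. The calls for HMMR and CCNA2 were lost with the split term at nearly the same size, -0.48 and -0.45 (adjusted p = 0.104 and 0.121).

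Mesenchymal genes were higher in SG12. Of 14 readable genes 7 rose and 1 fell, beside 13.2% of all readable genes higher and 21.1% lower. The median log2 fold change of the list was 0.43. VIM (VIM-AS1), the filament protein vimentin, had 26871, 32188 and 33236 CPM in SG12, against 11441, 16640 and 14739 CPM in SG21. The lines did not overlap, and the log2 fold change was 1.11 ± 0.11 (edgeR adjusted p = 2.07e-09). CD44 (CD44-AS1), which binds hyaluronan at the cell surface, had 327, 397 and 361 CPM in SG12, against 125, 101 and 107 CPM in SG21 (1.70 ± 0.13, adjusted p = 3.34e-12), over an overlap of 84 bases. TWIST1 (ENSG00000232821), a transcription factor of epithelial to mesenchymal transition, had 83.7, 92.7 and 89.8 CPM in SG12, against 27.1, 17.9 and 26.4 CPM in SG21 (1.91 ± 0.18, adjusted p = 5.59e-10).

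SG12 stood above and SG21 below SGCTRL and parental cells for CD44 and TWIST1, with SGCTRL at 217 and 47.6 CPM and parental cells at 286 and 71.8 CPM. ZEB1 (ZEB1-AS1) and ZEB2 (ZEB2-AS1), repressors of epithelial genes, rose by 1.24 and 1.10 (edgeR adjusted p = 0.0234 and 4.69e-05), and LOXL2 (LOXL2-AS1), a collagen cross-linking enzyme, by 0.59. THY1 (THY1-AS1), a surface glycoprotein, fell by 0.41 (adjusted p = 0.00749). SPARC, AXL, ACTA2, TPM1, ITGAV and LOX lay between -0.13 and 0.27. With the split term 6 genes of the list still rose. Of the epithelial list 2 genes were readable, DSG2 (DSG2-AS1), a desmosomal cadherin, at 0.67 ± 0.13 (adjusted p = 0.000139; 0.42 and adjusted p = 0.121 with the split term), and CDH3 (CDH3-AS1), P-cadherin, at -0.62 (adjusted p = 0.328).

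Signals of axon guidance and growth were higher too. Of 9 readable genes 5 rose, beside 13.2% of all readable genes, and 4 did with the split term. NRP1 (ENSG00000238258), neuropilin-1, a co-receptor for semaphorins and VEGF that also stands in the mesenchymal list, had 168, 172 and 167 CPM in SG12, against 40.8, 47.4 and 47.0 CPM in SG21 (log2 fold change 1.90 ± 0.15, edgeR adjusted p = 5.1e-12). NKD1 (ENSG00000205414), a feedback inhibitor of Wnt signalling, had 281, 341 and 360 CPM in SG12, against 90.5, 91.7 and 82.5 CPM in SG21 (1.89 ± 0.16, adjusted p = 2.04e-11). EFNB2 (ENSG00000284966), the ligand ephrin-B2, rose by 1.40 ± 0.12 (adjusted p = 7.52e-11). BDNF (BDNF-AS), a neurotrophin, had 91.0, 68.0 and 78.8 CPM in SG12, against 28.2, 31.5 and 34.1 CPM in SG21 (1.34 ± 0.17, adjusted p = 2.55e-07). ERBB2 (MIEN1), a receptor kinase, rose by 0.48 (adjusted p = 0.0351). NRP1, NKD1, EFNB2 and BDNF differed more in FBS, at 2.64, 2.90, 2.04 and 2.36, and the difference between media passed for all 4, from -0.64 to -1.02.

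Immediate early genes, which respond within minutes to growth signals, also stood higher in SG12, 4 of 5 readable ones, beside 13.2% of all readable genes. EGR3 (ENSG00000253125), a zinc finger factor, had 26.8, 26.4 and 34.5 CPM in SG12, against 5.56, 1.99 and 8.80 CPM in SG21 (log2 fold change 2.46 ± 0.38, edgeR adjusted p = 6.05e-06). SGCTRL and parental cells averaged 22.5 and 21.2 CPM in LPDS, so SG21 was the low line here. NR4A1 (NR4A1AS), a nuclear receptor, had 273, 336 and 360 CPM in SG12, against 179, 184 and 182 CPM in SG21 (0.83 ± 0.13, adjusted p = 1.48e-05). PHLDA1 (PHLDA1-AS1) and IER2 (ENSG00000267598) rose by 0.70 and 0.36. In FBS EGR3 averaged 5.39 ± 1.44 CPM in SG12 and 6.70 ± 1.44 CPM in SG21 (SD, n = 3 each), and the difference between media was 2.79 ± 0.56 (adjusted p = 0.0007).

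**Figure D2:**
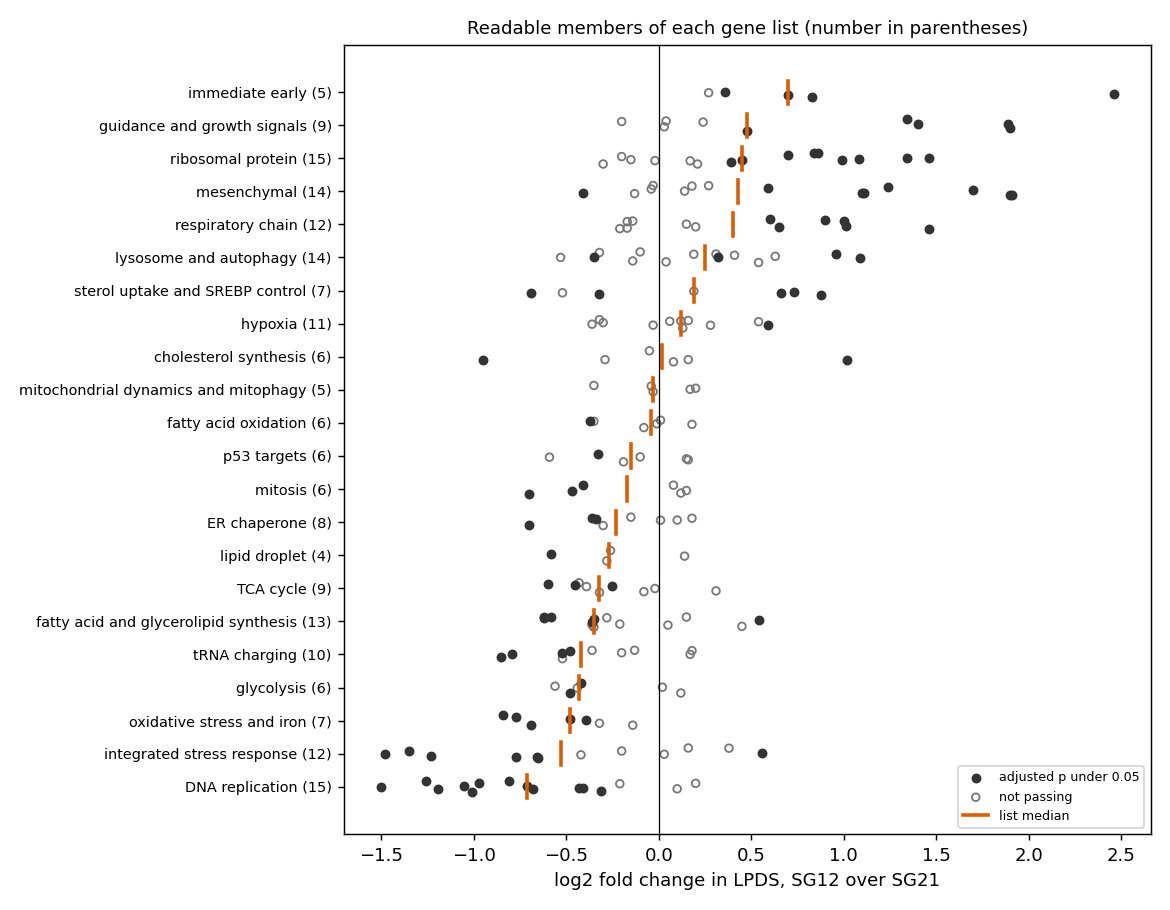
Log2 fold change in LPDS, SG12 over SG21 (x axis), of every readable gene of the lists with at least 4 readable members, sorted by median (orange bar); filled points passed the edgeR test and open points did not. DNA replication lies at the bottom with a median of -0.71 and immediate early genes at the top with 0.70.

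Ribosomal protein and respiratory chain genes were higher in SG12, in part along the library split. Of 15 readable ribosomal protein genes 9 rose (median 0.45), beside 13.2% of all readable genes, and 5 did with the split term. RPS3A (SH3D19) had 1280, 1335 and 1180 CPM in SG12, against 784, 826 and 719 CPM in SG21 (log2 fold change 0.70 ± 0.10, edgeR adjusted p = 8.04e-07), so here the SG21 libraries were alike. RPL17 (ENSG00000265496) had 128, 127 and 144 CPM in SG12, against 70.1, 45.1 and 42.6 CPM in SG21 (1.34 ± 0.15, adjusted p = 1.54e-08). Short genes of this kind have many near-identical copies in the genome, and how the counting shared reads among them is not given in the sources used here.

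Among 12 readable nuclear genes of the respiratory chain 6 rose (median 0.40), beside 13.2% of all readable genes, and 2 did with the split term. NDUFB8 (HIF1AN), of complex I, had 421, 395 and 395 CPM in SG12, against 268, 190 and 149 CPM in SG21 (1.00 ± 0.13, edgeR adjusted p = 4.47e-07). SDHC (CFAP126), of complex II, rose by 0.60 ± 0.11 (adjusted p = 6.58e-05). ATP5ME (MYL5), of ATP synthase, had 450, 326 and 348 CPM in SG12, against 253, 85.7 and 70.8 CPM in SG21. Its 1.46 ± 0.24 (adjusted p = 1.89e-05) became 0.57 with the split term (adjusted p = 0.0779) and 2.25 without SG21 replicate 1. UQCRB (UQCRB-AS1), of complex III, had 307, 294 and 323 CPM in SG12, against 293, 89.7 and 76.3 CPM in SG21. SG21 replicate 1 was thus level with SG12, and the difference of 1.01 ± 0.23 (adjusted p = 0.00158) was 0.08 against that library alone (adjusted p = 0.839) and 1.89 without it.

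Enzymes against oxidants were lower in SG12, 5 of 7 readable genes of that list, beside 21.1% of all readable genes. With the split term 4 passed lower. PRDX1 (MMACHC), a peroxiredoxin, had 1787, 1717 and 1606 CPM in SG12, against 2926, 3276 and 2917 CPM in SG21 (log2 fold change -0.84 ± 0.08, edgeR adjusted p = 1.76e-09). NQO1 (ENSG00000261602), a quinone reductase, had 236, 217 and 199 CPM in SG12, against 289, 383 and 379 CPM in SG21 (-0.69 ± 0.12, adjusted p = 6.68e-05; -0.41 and adjusted p = 0.103 with the split term). PRDX2 (ENSG00000267062) fell by 0.39, and SLC7A11 above is also among the 5.

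Lists of central metabolism held few readable genes, and their counts stand beside 21.1% of all readable genes lower in SG12 and 13.2% higher. In the TCA cycle list 3 of 9 readable genes fell, among them IDH3A (ACSBG1) by 0.60 and PDHB (ENSG00000272182) by 0.45, and all 3 still fell with the split term. In glycolysis 2 of 6 fell, among them ALDOA (ENSG00000274904), aldolase, by 0.42, while GAPDH (ENSG00000269968) was at 0.02 (edgeR adjusted p = 0.923). In fatty acid oxidation 1 of 6 fell, ECI2 (TEX56P) by 0.37. The lysosome and autophagy list had 3 of 14 higher and 1 lower. WIPI1 (ARSG), which binds the growing autophagosome, had 83.7, 94.0 and 83.0 CPM in SG12, against 47.1, 37.5 and 37.8 CPM in SG21 (1.09 ± 0.14, adjusted p = 2.29e-07). TPP1 (ENSG00000255680), a lysosomal peptidase, rose by 0.96 ± 0.12 (adjusted p = 2.8e-07), CTSA (ENSG00000271984) by 0.32, and the autophagy receptor SQSTM1 (MRNIP) fell by 0.35.

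The lists not yet described had 3 passing genes or fewer each, to be set beside 21.1% of all readable genes lower in SG12 and 13.2% higher. Of 8 readable endoplasmic reticulum chaperone genes 3 fell, EDEM1 (ENSG00000268509) by 0.70, PDIA6 (ATP6V1C2) by 0.36 and DERL1 (TBC1D31) by 0.34. Of 6 p53 targets 1 fell, MDM2 (ENSG00000257181) by 0.33, and of 11 hypoxia genes 1 rose, LOXL2. The 4 genes of lipid droplets had 1 that fell, DGAT2. The 5 genes of mitochondrial dynamics lay between -0.35 and 0.20, and both LXR targets, NR1H3 (ACP2) and LPCAT3 (EMG1), at -0.03 and -0.17 (edgeR adjusted p = 0.972 and 0.225). Smaller lists gave H2AZ1 (H2AZ1-DT) and MACROH2A1 (PITX1-AS1), histone variants, lower by 0.52 and 0.37, GATA6 (ENSG00000266283), a gut transcription factor, higher by 0.87 ± 0.14 (adjusted p = 1.35e-05), and SP110 (ENSG00000225963) and TRIM25 (ENSG00000262112) of the interferon list lower by 1.68 and 0.30.

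The largest single difference among the readable genes above 48.6 CPM was that of S100A1 (S100A13), a calcium-binding protein, on chromosome 1 at 153627926 to 153632039. It had 213, 235 and 214 CPM in SG12, against 14.1, 10.2 and 8.07 CPM in SG21, a log2 fold change of 4.36 ± 0.22 (edgeR adjusted p = 1.56e-17). SGCTRL and parental cells averaged 19.7 and 15.3 CPM in LPDS, so SG12 is the line that stands out. In FBS it was 134 ± 5.98 CPM in SG12 and 20.5 ± 1.41 CPM in SG21 (SD, n = 3 each). Of the other genes named for their size, BCS1L (ZNF142), a chaperone of complex III, had 125, 160 and 165 CPM in SG12, against 41.5, 33.5 and 48.1 CPM in SG21 (1.88 ± 0.16, adjusted p = 5.35e-11). SGCTRL and parental cells stood at 42.2 and 53 CPM for BCS1L, again near SG21. WASF3 (ENSG00000285935), which drives actin branching, rose by 1.6 ± 0.11 (adjusted p = 1.12e-13), and DEPTOR (DEPTOR-AS1), an inhibitor of mTOR, by 1.44 ± 0.12 (adjusted p = 2.11e-11).

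For POLL (DPCD), DNA polymerase lambda, SG21 was the line apart. It had 217, 260 and 228 CPM in SG12, against 55.6, 76.1 and 72.6 CPM in SG21, with SGCTRL at 251 and parental cells at 227 CPM (log2 fold change 1.78 ± 0.13, edgeR adjusted p = 1.12e-12). MYL5 (SLC49A3), a myosin light chain, had 126, 160 and 147 CPM in SG12, against 42.3, 42.3 and 49.2 CPM in SG21 (1.70 ± 0.16, adjusted p = 4.59e-10), with SGCTRL and parental cells at 98.2 and 95.9 CPM.

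Among the falls FXYD6 and BAIAP2L1 were the deepest. FXYD6 (FXYD6-AS1), a regulator of the sodium pump, had 34.0, 30.1 and 31.6 CPM in SG12, against 145, 176 and 190 CPM in SG21 (log2 fold change -2.41 ± 0.15, edgeR adjusted p = 1.32e-14). In FBS FXYD6 averaged 9.13 ± 2.18 CPM in SG12 and 166 ± 21.8 CPM in SG21 (SD, n = 3 each), a larger gap, with a difference between media of 1.75 ± 0.24 (adjusted p = 3.01e-06). BAIAP2L1 (BRI3), which bends membranes over actin, had 24.9, 33.8 and 28.3 CPM in SG12, against 156, 146 and 158 CPM in SG21 (-2.40 ± 0.13, adjusted p = 2.53e-16), with SGCTRL at 156 and parental cells at 98.3 CPM. STEAP3 (STEAP3-AS1), an iron reductase, fell by 1.87 ± 0.16 (adjusted p = 2.11e-11). KCNG1 (ENSG00000232358), a potassium channel subunit, had 19.5, 21.3 and 23.8 CPM in SG12, against 48.2, 140 and 92.4 CPM in SG21, and its -2.13 ± 0.24 (adjusted p = 1.37e-08) was -1.15 against SG21 replicate 1 alone.

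CEBPA (ENSG00000267580), a differentiation factor, had 70.5, 68.0 and 71.6 CPM in SG12, against 229, 267 and 234 CPM in SG21 (log2 fold change -1.80 ± 0.13, edgeR adjusted p = 3.65e-13). SGCTRL and parental cells lay between the lines for CEBPA, at 154 and 133 CPM. CCDC86 (ENSG00000255959), a nucleolar protein, was at -1.66 ± 0.13 (adjusted p = 3.34e-12), SNTB1 (MTBP), a syntrophin of the membrane skeleton, at -1.62 ± 0.12 (adjusted p = 1.65e-12), and NCAPD3 (ENSG00000255348), of condensin II, at -1.53 ± 0.13 (adjusted p = 2.11e-11). LRATD2 (PCAT1), CCDC110 (ENSG00000249679) and SAMD11 (NOC2L) completed the 12 with -1.40, -1.37 and -1.37.

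Some entries under their own names were nearly empty in a line. The YKT6 entry (chromosome 7, 44200968 to 44214294), with no annotated gene on the other strand, held 1, 0 and 4 reads in SG12, against 145, 187 and 124 reads in SG21. SGCTRL and parental cells averaged 53.1 and 54.5 CPM for it in LPDS, and in FBS it was at 1.74 ± 0.514 CPM in SG12 and 53.3 ± 1.31 CPM in SG21 (SD, n = 3 each), so SG12 was the empty line in both media. The CDR1 entry, with LINC00632 across from it, held 1 read over the SG12 libraries, against 58, 50 and 35 reads in SG21, and in FBS averaged 8.33 ± 3.05 CPM in SG12 and 17.4 ± 3.91 CPM in SG21. The KRR1 entry held 2 reads over the SG12 libraries, against 24, 45 and 35 reads in SG21. For the CDR1 and KRR1 entries SG21 also stood above the controls in LPDS, with means of 16.2 and 11.5 CPM. SGCTRL averaged 3.63 and 2.2 CPM there and parental cells 1.3 and 1.98 CPM, and SG12 was lowest at 0.105 and 0.217 CPM. In the other direction the UBE4B entry held 138, 131 and 131 reads in SG12, against 5, 23 and 6 reads in SG21 (log2 fold change 3.54 ± 0.31, edgeR adjusted p = 5.35e-11). SYTL4, which reads SRPX2, an extracellular matrix protein, held 39, 86 and 59 reads in SG12, against 9, 4 and 3 reads in SG21 (3.45 ± 0.40, adjusted p = 3.15e-08). UBE4B was at 4.40 without SG21 replicate 2 and at 4.52 with the split term. SYTL4 was at 4.12 without SG21 replicate 1, at 2.58 with the split term and at 2.59 against that replicate alone. Which transcripts the reads of the YKT6, KRR1 and UBE4B entries come from was not tested.

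The LPDS and FBS comparisons of the lines share no library. In FBS 3533 entries passed (27.6%), 13.1% of all higher and 14.5% lower. Of the 959 readable genes passing in LPDS, 492 also passed in the same direction in FBS, which is 51.3% of the LPDS list and 40.5% of the 1215 genes passing in FBS (43.5% of those tested). A further 76 (7.92%) passed in the opposite direction. The difference between media itself passed for 610 readable genes (21.8%), and for 301 of the 959 (31.4%). The 959 were picked on the LPDS libraries that also enter this difference, so these shares are not like for like. Over all entries the difference between media passed for 1653 (12.9%), 6.57% positive and 6.33% negative. SAMD11 had the most negative difference between media among readable genes passing both tests, at -2.74 ± 0.15 (edgeR adjusted p = 3.56e-16). It had 190, 152 and 159 CPM in SG12, against 429, 438 and 430 CPM in SG21 in LPDS, and means of 906 ± 54.9 CPM in SG12 and 352 ± 14.2 CPM in SG21 in FBS. SNTB1 also turned, with 49.9 ± 3.47 CPM in SG12 and 154 ± 9.57 CPM in SG21 in LPDS, and 203 ± 24.9 CPM in SG12 and 129 ± 17.3 CPM in SG21 in FBS (-2.28 ± 0.17, adjusted p = 2.22e-12). In both, the SG12 mean was the one that moved most between media.

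Besides WARS1, IDI1 and EGR3 above, the other genes named for their difference between media were at lower levels. YIF1A (CNIH2), a protein of transport between endoplasmic reticulum and Golgi, had 40.6, 25.7 and 39.4 CPM in SG12, against 11.5, 16.5 and 16.5 CPM in SG21 in LPDS, and its log2 fold change was 1.24 in LPDS and -1.22 in FBS (difference between media 2.46, edgeR adjusted p = 1.78e-05). FKBP15 (SLC31A2) had 30.8, 26.0 and 33.8 CPM in SG12, against 11.1, 10.5 and 10.6 CPM in SG21 (1.49 in LPDS and -0.32 in FBS). TUBB4A (ENSG00000268191), a beta-tubulin, and HSD17B1 (HSD17B1-AS1), which makes estradiol, were at 0.89 and 0.87 in LPDS and at -1.01 and -1.02 in FBS. In the other direction RAPGEF3 (RPAP3-DT), the cyclic AMP sensor EPAC1, had 15.1, 11.5 and 14 CPM in SG12, against 31.5, 39.7 and 37.4 CPM in SG21 (-1.42 in LPDS and 0.64 in FBS). PYROXD1 (RECQL), an oxidoreductase, and CCDC113 (PRSS54), a protein of cilia, were at -0.43 and -1.37 in LPDS and at 1.72 and 0.68 in FBS.

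**Figure D3:**
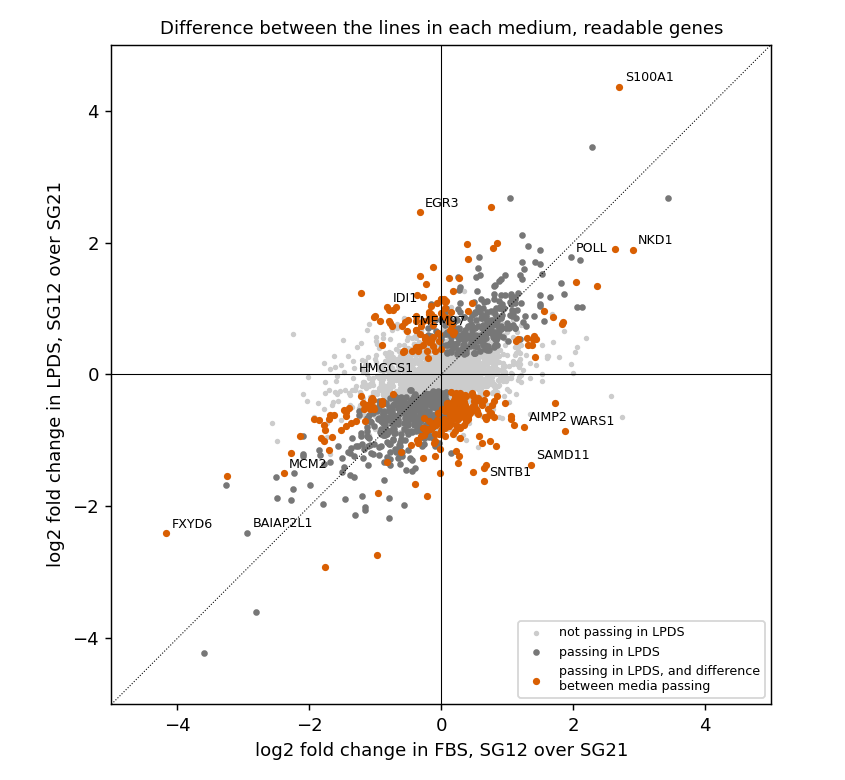
Log2 fold change of SG12 over SG21 in LPDS (y axis) against that in FBS (x axis) for the 2796 readable genes; grey points passed in LPDS, orange ones also passed the test of the difference between media, and the dotted line marks equal values. WARS1, SAMD11, SNTB1 and AIMP2 lie at the lower right, with SG12 below SG21 in LPDS and above it in FBS, and FXYD6 lies at the lower left.

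Entries of the mitochondrial genome, a group looked at after the values were seen, were higher in SG12 in LPDS. Of 37 such entries 20 were tested, 13 of them protein-coding and 7 tRNAs, and 19 passed higher, against 8.75% of all entries, with a median log2 fold change of 2.17. Their summed level was 11321, 7049 and 10643 CPM in SG12, against 3701, 1270 and 1692 CPM in SG21. All 20 entries had their lowest SG12 library above their highest SG21 library. MT-ND5, a subunit of complex I, had 2246, 1505 and 2374 CPM in SG12, against 562, 332 and 459 CPM in SG21 (2.18 ± 0.32, edgeR adjusted p = 2.85e-06). MT-CYB, cytochrome b, had 994, 616 and 1039 CPM in SG12, against 298, 126 and 150 CPM in SG21 (2.21 ± 0.33, adjusted p = 3.27e-06). MT-CO1, of cytochrome c oxidase, had 270, 238 and 328 CPM in SG12, against 168, 105 and 118 CPM in SG21 (1.10 ± 0.26, adjusted p = 0.00187).

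SG12 in LPDS was also above the controls, since SGCTRL averaged 1789 ± 522 CPM and parental cells 3556 ± 413 CPM in LPDS (SD, n = 3 each). In FBS the lines overlapped, with 2611, 2721 and 8328 CPM in SG12, against 6495, 5921 and 4594 CPM in SG21, a median of -0.34, and 5 entries lower in SG12. SG12 replicate 3 carries the SG12 mean of 4554 CPM in FBS, which is 2666 CPM without it, and 10 entries were then lower. Without SG12 replicate 1 or 2 or SG21 replicate 1 in FBS no entry passed, and without SG21 replicate 2 it was 2. The difference between media passed for 18 of the 20, all positive, and for 12 to 19 as each of these FBS libraries was left out. The sum also goes with the library split. It was 1270 to 2386 CPM in the 8 libraries with a low ambiguous share and 1019 to 8328 CPM in the 13 other libraries outside SG12 in LPDS, and with the split term 8 entries passed higher, with a median of 1.47. SG21 replicate 1 had 3701 CPM, under every SG12 library. Most reads of these libraries lie on the strand opposite to the entries, so mitochondrial entries may hold leaked or opposite-strand reads, and which of these they are was not tested.

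**Figure D4:**
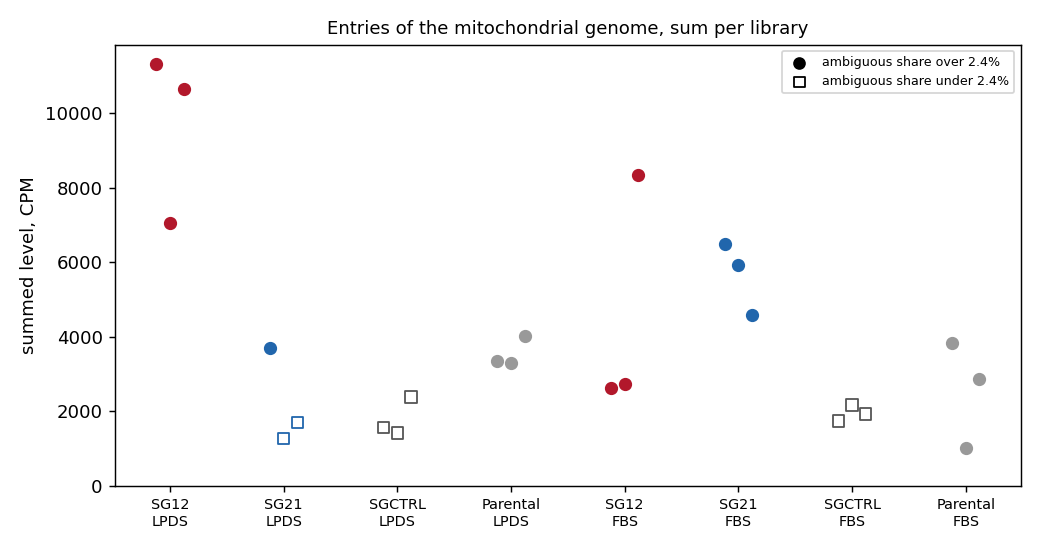
Summed level of the 37 mitochondrial entries per library in CPM (y axis, from 0), for each line in LPDS and then in FBS; filled circles mark libraries with over 2.4% ambiguous reads and open squares those under it. The SG12 libraries in LPDS lie at 7049 to 11321 CPM, and those of SG21 at 1270 to 3701 CPM.

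Neighbouring genes differed together on a few chromosomes, a description also made after the values were seen. The genome was divided into windows of 10 Mb, of which 208 held at least 20 entries with an average log2 CPM over 1, and the middle 90% of their median log2 fold changes lay between -0.34 and 0.34. On chromosome 10 from 90 to 110 Mb the median of 103 entries was 1.00, and 46 of them (44.7%) passed higher in SG12 and 3 lower, beside 8.66% higher and 9.55% lower over all 12079 entries used for the windows. Of 21 readable genes there 15 passed higher and 1 lower. POLL and NDUFB8 are among those higher, as are CHUK, a kinase of NF-kappaB signalling, and MRPL43, a mitochondrial ribosomal protein. In FBS the same stretch had a median of 0.88, and with the split term in LPDS 1.23. SG12 was level with the controls there, at a median difference of -0.07 from SGCTRL and -0.05 from parental cells, while SG21 was at -1.05 and -1.01. The shift over this stretch was thus in SG21 and not in SG12.

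Smaller shifts were on chromosome 18 from 20 to 30 Mb, with a median of 0.76 in LPDS and 0.89 in FBS over 23 entries, and on chromosome 4 from 0 to 10 Mb, with 0.74 and 0.46 over 63 entries. On chromosome 18 both lines were shifted in LPDS, SG12 by 0.29 from SGCTRL and 0.38 from parental cells, and SG21 by -0.52 and -0.34. On chromosome 4 these values were 0.15 and -0.03 for SG12, and -0.68 and -0.80 for SG21. NPC1 and GATA6 lie in the stretch of chromosome 18, and MYL5 in that of chromosome 4, so their direction between the lines is that of their neighbours. ATP5ME also lies in the stretch of chromosome 4 and was higher in SG12 in LPDS, but against the controls it differed from that stretch. It averaged 375 CPM in SG12 and 136 CPM in SG21 in LPDS, against 103 CPM in SGCTRL and 214 CPM in parental cells. In FBS its log2 fold change between the lines was 0.12. On chromosome 11 from 90 to 130 Mb the median was -0.50 in LPDS and -0.40 in FBS over 166 entries, 39 of which passed lower and 4 higher, beside the same 9.55% and 8.66%. In the windows of that stretch SG12 lay at -0.43 to -0.26 from SGCTRL in LPDS and -0.44 to -0.28 from parental cells. SG21 lay at -0.09 to 0.40 and -0.11 to 0.27. FXYD6 and THY1 lie there, and so does YAP1 (ENSG00000254422), a transcriptional co-activator of growth, at -0.63 in LPDS and 0.25 in FBS. Some other windows beyond the middle 90% in LPDS had no like shift in FBS. Chromosome 13 from 20 to 30 Mb was at -0.63 in LPDS and 0.12 in FBS, and chromosome 5 from 40 to 50 Mb at -0.49 and 0.13. Copy number was not measured in these libraries, and its part in any of these stretches was not tested.

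**Figure D5:**
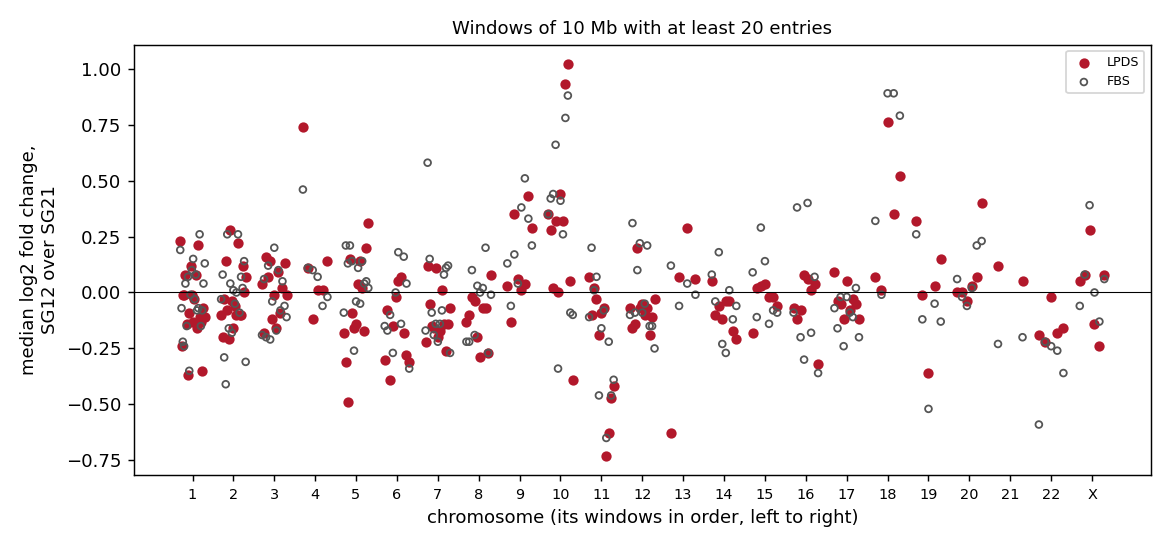
Median log2 fold change of SG12 over SG21 (y axis) in windows of 10 Mb with at least 20 entries, grouped by chromosome (x axis) and in order along each; filled red points are LPDS and open points FBS. Windows of chromosomes 10, 18 and 4 reach 1.02, 0.76 and 0.74 in LPDS, and chromosome 11 reaches -0.73.

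For most of the 959 passing genes the wild-type means in LPDS lay between those of the lines. The SGCTRL mean fell between those of SG12 and SG21 for 705 of the 959 genes (73.5%) and the parental mean for 769 (80.2%). The 959 were picked because SG12 and SG21 differ, which by itself favours other means falling between them. The same share was not taken over all readable genes. Whether the lines moved in opposite directions from wild type was thus not tested. SGCTRL was nearer to SG12 for 487 genes and to SG21 for 472, while parental cells were nearer to SG12 for 569 and to SG21 for 390. MCM2, CD44, TWIST1 and CEBPA are among the genes for which both wild-type means lay between the lines.

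Among the named genes the smaller differences depended on single libraries. Leaving out a library in turn ended the call for 18 of them at an unchanged direction. Among these, for TRIM25 any of 5 libraries did so, with log2 fold changes of -0.31 to -0.17. For SREBF2, CCNA2, MDM2, PYROXD1 and CTSA it was any of 4, with -0.35 to -0.19, -0.38 to -0.36, -0.35 to -0.24, -0.43 to -0.35 and 0.30 to 0.32. IER2 (0.26 to 0.38), TUBB4A (0.63 to 0.77) and HSD17B1 (0.75 to 0.76) each lost it without any of 3. ECI2 lost it without SG12 replicate 3 or SG21 replicate 1 (-0.33 and -0.26), and DERL1 without SG12 replicate 1 or SG21 replicate 2 (-0.28 and -0.26). DGAT2 (-0.35), EDEM1 (-0.44) and CCDC113 (-1.05) lost it without SG21 replicate 2, and HMMR (-0.32) without SG12 replicate 3. The split term ended the calls of TUBB4A (0.06), HSD17B1 (1.13), SP110 (-1.50), TRIM25 (-0.13), MDM2 (-0.30), PYROXD1 (-0.34), EDEM1 (-0.54), DERL1 (-0.20), SQSTM1 (-0.25) and CTSA (0.30) as well. TUBB4A was at 1.55 without SG21 replicate 1, and CCDC113 at -1.99 without SG12 replicate 3. With the own-strand share as a covariate the calls of SREBF2 (-0.23), FADS1 (-0.34), ACLY (-0.19), ECI2 (-0.25), ALDOA (-0.18), SQSTM1 (-0.22), MARS1 (-0.28), PDIA6 (-0.23) and EDEM1 (-0.43) ended. That setting also ended those of DERL1 (-0.27), HMMR (-0.23), CCNA2 (-0.18), TRIM25 (-0.11), MDM2 (-0.14), PRDX2 (-0.20), IER2 (0.17), HSD17B1 (0.74), PYROXD1 (-0.37) and CCDC113 (-0.77).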

How the data were processed

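The authors deposited raw read counts per gene entry, a table per library, whose 5 closing entries (reads on no gene, ambiguous and the like) stayed out of the tests. Reads on no gene were 94.3% to 94.6% of uniquely aligned reads. Per the submitters' processing notes, bcl2fastq and STAR were used with hg38; versions, the counting program, its strand setting and annotation are not given in the sources used here. Entries were matched to GENCODE release 29, and a readable source gene is the opposite-strand gene with at least 50 bases and 80% of the exon overlap, where leakage of the entry's own gene is put at no more than 50% of its reads. All 24 libraries were fitted in R 4.3.3 with edgeR 4.0.16 (quasi-likelihood F test, a mean per line and medium, TMM, filterByExpr, 12822 entries). Benjamini-Hochberg adjustment ran over all entries. SE is the absolute log2 fold change over the square root of F. CPM is TMM-scaled, except in the mitochondrial sum. The labels call the replicates independent but not in which respect, and p-values cover only the spread between these libraries.

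Members, gene lists and tests were chosen with earlier results of these data known. Named are TMEM97 and related genes, all readable cholesterol synthesis genes, up to 4 passing members of each other list by adjusted p, the 12 largest rises and falls above 48.6 CPM with the lines fully apart, the 3 largest each way among own-name entries whose mean log2 CPM reached 2, and the 6 largest differences between media each way. Other list members, mitochondrial entries and genes of the windows were named after their values were seen. Some genes that these rules name are counted but not reported by name here. Of the genes set by name, PGRMC1 is not readable and has no value here. Alternatives were DESeq2 1.42.0 size factors and Wald test, no count filter or at least 1 CPM in 3 libraries, library sizes from all uniquely aligned reads, a spread from only the groups compared, a block for replicate number, the library split, the own-strand share, SG21 replicate 1 alone, and each library left out in turn.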

Additional observations from a re-analysis of the deposited data

Results flagged for a closer look

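The difference between SG12 and SG21 depended on the medium, by the edgeR test of the LPDS difference minus the FBS difference, for the named genes given here with that value on the log2 scale. It was positive for the sterol and lipid genes TMEM97 (1.18), HMGCS1 (1.29), ACAT2 (0.70), IDI1 (1.84), LSS (0.99), LRP8 (1.17), SREBF1 (0.86) and PCYT2 (1.06), and negative for DGAT2 (-1.01). It was negative for the carriers and folate enzyme SLC1A5 (-1.50), SLC7A5 (-1.60), MTHFD2 (-1.32) and SLC7A11 (-1.87), and for the tRNA charging genes WARS1 (-2.72), AIMP2 (-2.04) and MARS1 (-1.04).

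It was positive for the replication genes MCM2 (0.89), RAD54L (1.09) and CDK2 (0.58), while over the 15 readable genes of that list 6 passed positive and 1 negative, with a median of 0.11. It was positive for the immediate early genes EGR3 (2.79), NR4A1 (1.03) and IER2 (0.92). The guidance genes NRP1 (-0.73), NKD1 (-1.0), EFNB2 (-0.64) and BDNF (-1.02) were negative, whereas TWIST1 (1.13) was positive. Among the genes named for their size, S100A1, read under the S100A13 entry, was at 1.65 and FXYD6 at 1.75, while SNTB1 was at -2.28, SAMD11 at -2.74, CEBPA at -0.83 and CCDC86 at -1.26.

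Of the remaining genes, YIF1A (2.46), TUBB4A (1.90), HSD17B1 (1.89), FKBP15 (1.81), ATP5ME (1.34), RPL32 (1.19), UQCRB (0.95), PRDX1 (0.94) and WIPI1 (0.63) were positive. PYROXD1 (-2.15), RAPGEF3 (-2.06), CCDC113 (-2.05), GATA6 (-0.82), EDEM1 (-0.81), HMMR (-0.64), NQO1 (-0.63) and MDM2 (-0.62) were negative. The CDR1 entry was at -5.73, a value that rests on 1 read in the SG12 libraries in LPDS and depends on the prior count. The test for a single outlying library within a group was not applied to groups of 3.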

How the results depend on the processing

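Of 105 named items 99 passed in LPDS; 64 did so under all 16 settings, 24 were lost with the split term, and direction was never reversed among the 99. With the library split as a term, passing entries numbered 1101 in LPDS and 836 for the difference between media, readable genes 515, mitochondrial entries 8 and chromosome 10 entries 30. With SG21 replicate 1 alone these were 1040, 791, 489, 8 and 30. Whether the split itself or fewer SG21 libraries lowered the counts was not tested. Leaving out a library gave 1667 to 2339 entries in LPDS, 707 to 977 readable genes, 1195 to 2059 for the difference between media, 2766 to 3433 in FBS, 18 to 19 mitochondrial and 39 to 43 chromosome 10 entries. The replicate numbers do not pair the samples, with correlations of 0.0403, -0.0259 and 0.0187 between same-numbered libraries in LPDS, and the replicate block gave 2412 entries in LPDS, 992 readable genes, 1733 for the difference between media, 3583 in FBS, 19 mitochondrial and 46 chromosome 10 entries, and ended no named call. Depth limits genes read through few bases and the near-empty own-name entries.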
